A study of Mus musculus with 14 samples.

Results

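The change that an active form of YAP makes in neuroendocrine small cell lung cancer cells was set against the difference between the non-neuroendocrine and the neuroendocrine cells of the same tumour model. For each gene the log2 change at day 21 over day 0 of YAP5SA expression was compared with the log2 difference of Non-NE over NE cells, and the first minus the second was tested. The comparison used 9 of the 14 libraries of the series: 2 YAP5SA libraries of day 21, 2 of day 0, 3 Non-NE libraries and 2 NE libraries. Of 32926 gene symbols, 14629 had enough counts to be tested. NE replicate 2 was left out, because none of the 32926 symbols has a higher count in it than in day 0 replicate 1 and its total is 85.7% of that library's. The remaining libraries give comparisons that share no sample.

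RNA was sequenced from cultured cell lines derived from adult mouse lung tumours and grown in Hites medium. All groups carry CGRPCreER/+ and floxed alleles that include Rbf/f and P53f/f, so that Cre, active only with tamoxifen and driven from the calcitonin gene promoter used in pulmonary neuroendocrine cells, could delete the floxed genes, Rb1 and Trp53 among them. The day 21 libraries and day 0 replicate 2 also carry Rosa26rtTA and Tet-onYAP5SA, an inducible YAP that the Hippo kinases cannot inactivate, whereas the text of day 0 replicate 1 lists no transgene. In several genotype labels the number after P in P53 counts upward from sample to sample. Every day 21 library carries the transgene, so the effects of YAP5SA and of time in culture cannot be told apart. Nothing says that the libraries of a group came from separate cultures or animals, so p-values measure only the spread between these libraries, which may be technical.

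YAP and its paralogue TAZ are transcriptional coactivators that bind TEAD factors at the promoters and enhancers of their targets. The Hippo pathway, which includes the kinases MST1/2 and LATS1/2, leads to their phosphorylation and keeps them out of the nucleus. Many YAP and TAZ targets encode matrix, adhesion and cytoskeletal proteins or inhibitors of the pathway itself. Small cell lung cancer is mostly a neuroendocrine tumour in which YAP is silent, and it also holds non-neuroendocrine cells in which YAP is expressed. The series asks how YAP bears on this division. The question here is which parts of the Non-NE expression state appeared in YAP5SA cells, which were smaller or larger, and which went the other way.

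Total counts of the 9 libraries ran between 6730816 and 10539136. Levels are given as CPM, counts relative to the library total, scaled by TMM over these libraries, and errors are SD with n = 2 at day 21, day 0 and in NE cells and n = 3 in Non-NE cells. A group with 0 counts allows up to 3 counts over its libraries, which is 0.144 CPM at day 21, 0.138 at day 0, 0.127 in Non-NE and 0.15 in NE cells, counting error only. A fold given as "at least" is the ratio of counts summed over each group's libraries, relative to their summed scaled totals, with 3 counts in place of 0. A change is "called" where edgeR's quasi-likelihood test gave a p under 0.05 after Benjamini-Hochberg adjustment over all genes tested. Where a group has 0 counts, a call gives at most the direction of a change or difference and not its size. The spread was uneven: the biological coefficient of variation was 0.0788 within day 21 and 0.0291 within day 0, against 0.46 within Non-NE and 0.394 within NE cells, and the test pools it. Summed neuroendocrine transcription factor levels followed the labels at 1340 and 1350 CPM at day 21, 5590 and 5730 CPM at day 0, 311 to 529 CPM in Non-NE and 4400 and 6040 CPM in NE cells. The promoter gene of the Cre, Calca, was at or near 0 in all groups. Summed over 11 leukocyte markers the level was 115 and 136 CPM at day 21, 12.1 and 10.7 CPM at day 0, 21.3 to 28.3 CPM in Non-NE and 52.2 and 8.98 CPM in NE cells, and Csf1r made up most of the day 21 sum. Endothelial markers (10) summed to 119 and 143 CPM at day 21, 368 and 381 CPM at day 0, 2.56 to 13.2 CPM in Non-NE and 388 and 214 CPM in NE cells, with Vwf most of it outside Non-NE cells. Tuft cell markers (9) summed to 9.64 and 8.55 CPM at day 21, 4.36 and 3.85 CPM at day 0, 228 to 363 CPM in Non-NE and 12.1 and 9.29 CPM in NE cells, mostly Dclk1 in Non-NE cells. The defining genes Ptprc (leukocytes), Cdh5 (endothelium) and Pou2f3 (tuft cells) were at or near 0 throughout, and the part of these markers in the results was not tested.

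Yap1, the targeted gene, stood at 208 and 217 CPM at day 21 against 7.79 and 7.06 CPM at day 0, and at 134, 256 and 227 CPM in Non-NE against 19 and 11.5 CPM in NE cells. The day 21 and Non-NE libraries lie in the same range, well above both low groups. This holds for day 21 and not for the earlier days. Scaled over all 14 libraries, Yap1 had 1225 and 1057 CPM at day 3, 746 and 802 CPM at day 7 and 209 and 218 CPM at day 21. The rise at day 21 was 28.5-fold and that in Non-NE cells 13.5-fold, and their log2 difference of 1.08 (SE 0.46) was not called (edgeR adjusted p = 0.133). Transgene and endogenous transcripts are counted together, so a like total does not mean a like source. Wwtr1, which encodes TAZ, had 9.83 and 8.55 CPM at day 21, 0 at day 0, 171, 204 and 216 CPM in Non-NE and 0 in NE cells. It was higher by at least 66.4-fold in YAP5SA cells and at least 1331-fold in Non-NE cells, and the day 21 level was far below that of Non-NE cells. With 0 counts in both low groups the difference of these changes cannot be estimated. Of the floxed genes, Rb1 fell in both, to 27.9 ± 2.1 CPM at day 21 against 77 ± 1.59 at day 0 and to 5.72 ± 1.16 CPM in Non-NE against 46.4 ± 4.1 in NE cells. The log2 difference of 1.56 (SE 0.30, edgeR adjusted p = 0.00967) lost its call without day 0 replicate 1, day 0 replicate 2 or day 21 replicate 1. Trp53 fell at day 21, to 5.98 ± 0.581 CPM against 12.4 ± 1.2 at day 0, and had 16.4 ± 2.95 CPM in Non-NE against 17.4 ± 1.8 in NE cells, a change that was not called. Its difference of -0.96 (SE 0.38) was not called. Gene counts do not show which exons were read.

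Across all genes the changes went the same way far more often than opposite ways. With the spread pooled over the groups, fewer genes were called at day 21 than in Non-NE cells. The test called 3514 genes (24%) at day 21, 2228 higher and 1286 lower, and 7229 genes (49.4%) in Non-NE cells, 3527 higher and 3702 lower. Of 2372 genes called in both, 2103 went the same way and 269 (1.84% of genes tested) opposite ways. Among the 2103, the difference was not called for 1470 (10%), the YAP5SA change was smaller for 545 (3.73%) and larger for 88 (0.602%). A further 1850 genes (12.6%) were called in Non-NE cells and not in YAP5SA cells with the difference called, and 412 (2.82%) the other way round. In all, the changes differed for 3275 genes (22.4%), with the YAP5SA change higher in 2271 (15.5%) and lower in 1004 (6.86%). Over 12346 genes with more than 3 counts in each group, Pearson's r between the changes was 0.484, across genes, which are not independent.

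Where the changes differed, day 21 and Non-NE cells stood further apart than day 0 and NE cells. These genes were picked by the difference of the changes. It equals the gap between day 21 and Non-NE cells less that between day 0 and NE cells. A wide gap in either or both is therefore built in, and the values below only describe in which. Among the 2461 genes with a called difference and more than 3 counts in each group, day 21 and Non-NE cells differed by a median of 1.85 on the log2 scale, against 0.685 over all such genes. Day 0 and NE cells differed by 0.365 in these genes, against 0.317 over all. Levels set across the pairs also hold any technical difference between these sets of libraries, which was not tested. Leaving out 1 day 0 or day 21 library lowered the count of differing genes to 1289 to 1559 and that of opposite genes to 53 to 72, while leaving out Non-NE replicate 1 raised the count of opposite genes to 447. A voom fit with a weight per library set called 9600 genes at day 21, 5781 in Non-NE cells and 686 opposite ones. Which change has more called genes therefore depends on how the spread is treated. Scaling by library totals alone moved the median of all genes by -0.131 at day 21 and -0.312 in Non-NE cells, and turned the split of differing genes into 2643 higher and 686 lower. Directions of gene lists below were checked under that scaling. The shares over all genes to set beside each list count are 15.2% higher and 8.79% lower at day 21. In Non-NE cells they are 24.1% higher and 25.3% lower. List members at or near 0 in some groups passed the count filter only through their higher groups, which fixes part of the direction. In bulk RNA, fewer cells of a kind and less RNA per cell cannot be told apart.

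**Figure D1:**
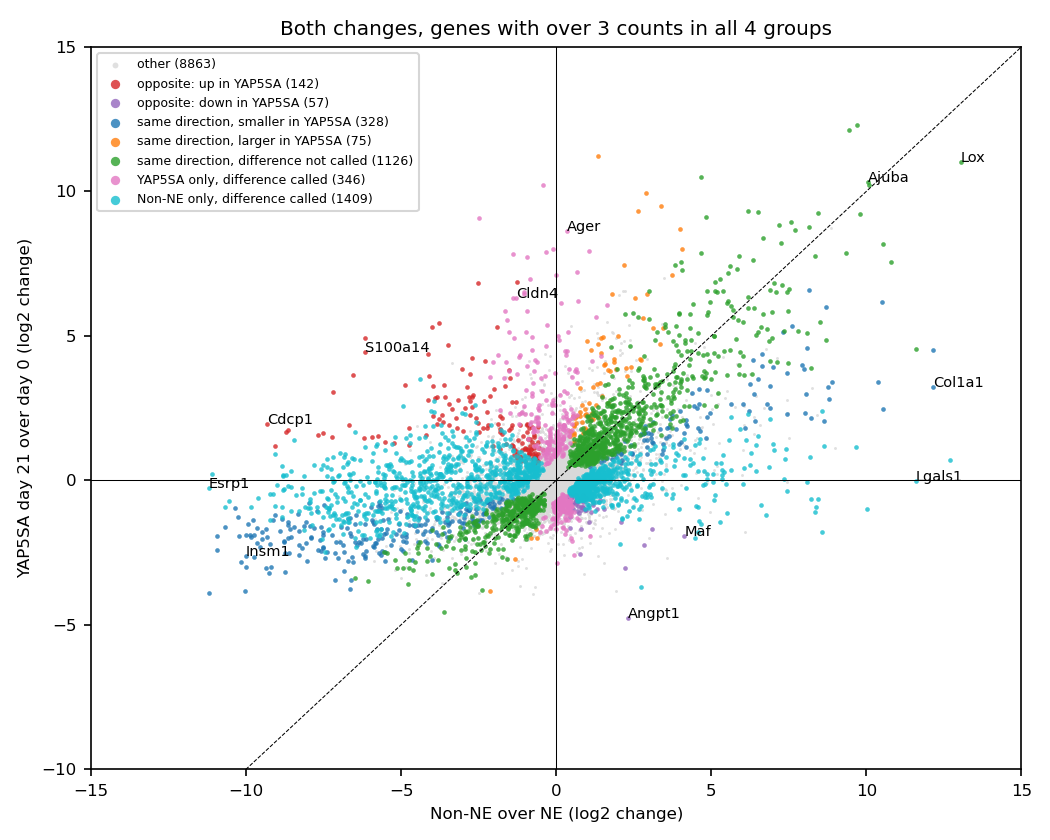
Log2 change at day 21 over day 0 (vertical) against that of Non-NE over NE (horizontal) for 12346 genes with more than 3 counts in each group, coloured by how the called changes compare; the dashed line marks equal changes. The upper left holds 142 genes higher in YAP5SA and lower in Non-NE cells, and the band along the horizontal axis holds the genes called in Non-NE cells alone.

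Target genes of YAP and TAZ often rose in both YAP5SA and Non-NE cells, with few called differences. Of 26 listed targets 17 rose at day 21 (15.2% of all genes did) and 20 in Non-NE cells (24.1% of all genes), 15 of them in both (8.37% of all genes), and for 14 of these 15 the difference was not called. The median log2 change, with groups under 3 counts set at 3 counts, was 4.86 in YAP5SA cells and 4.81 in Non-NE cells. Over all genes tested it was 0.0201 and 0.0227. Of the 26, 16 had more than 3 counts in each group, so some changes are bounds. Targets near 0 in the low groups passed the count filter only through the high ones. A difference that was not called does not show that the changes are alike. Without day 0 replicate 1 the day 21 count was 10. Ankrd1, a muscle ankyrin repeat protein, had 453 and 438 CPM at day 21 and 80.2, 529 and 241 CPM in Non-NE cells, and 0 counts in every day 0 and NE library. The day 21 libraries fall within the wide Non-NE range. The rise was at least 3221-fold in YAP5SA and at least 1994-fold in Non-NE cells, and the difference of the changes cannot be estimated here or for Ctgf. Ctgf, a secreted matricellular protein, had 530.2 and 527 CPM at day 21 and 192, 2798 and 186 CPM in Non-NE cells, of which 1 library carries most of the mean. Cyr61, of the same family, had 986 ± 117 CPM at day 21 against 0.184 ± 0.00147 at day 0 and 713 ± 405 CPM in Non-NE against 0.852 ± 0.00992 in NE cells. Axl, a receptor tyrosine kinase, Ptpn14, a phosphatase that restrains YAP, Amotl2 and the tissue factor gene F3 rose in both with no called difference.

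The exceptions among the targets were few. Amotl1 rose less in YAP5SA cells (log2 changes 1.63 at day 21 and 2.88 in Non-NE cells). Birc5, the mitotic inhibitor of apoptosis survivin, was the one target that went opposite ways: it fell to 55.5 and 59.2 CPM at day 21 against 80.5 and 83 CPM at day 0, and rose to 185, 193 and 165 CPM in Non-NE against 102 and 98.6 CPM in NE cells. It is also a gene of mitosis, described with that list, and it lost this class without day 0 replicate 1. Nt5e, the ectonucleotidase CD73, rose at day 21 alone, to 384 CPM against 9.31 at day 0, with the difference called, and Asap1 rose in Non-NE cells alone.

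Promoters of the targets were searched for the letters that TEAD factors bind. The motif GGAATG, searched on both strands from 250 bases before to 50 after the gene start in RefSeq (GRCm38.p6), occurred in 7 of 20 promoters of 18 listed targets (35%), against 14.7% of all 32851 promoters and 12.4% of those of genes tested. It occurred in 18.3% of promoters of genes that rose in both with no called difference and in 14.3% of those that went up in YAP5SA and down in Non-NE cells. A match is a run of letters and not a measured site. The promoters of Ankrd1 (chr19:36119795-36120094, minus strand) and of Ajuba (chr14:54577612-54577911, minus strand), a LIM protein that binds the LATS kinases, are shown because both genes were near 0 in day 0 and NE cells and reached like levels, and each holds 2 matches, in capitals (GGAATG, or CATTCC where it lies on the other strand).
Ankrd1: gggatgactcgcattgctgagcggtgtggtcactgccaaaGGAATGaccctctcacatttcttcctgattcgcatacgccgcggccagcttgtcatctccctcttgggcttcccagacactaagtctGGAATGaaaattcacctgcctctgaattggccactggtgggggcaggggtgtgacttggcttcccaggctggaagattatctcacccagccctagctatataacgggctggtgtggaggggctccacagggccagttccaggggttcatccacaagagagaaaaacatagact
Ajuba: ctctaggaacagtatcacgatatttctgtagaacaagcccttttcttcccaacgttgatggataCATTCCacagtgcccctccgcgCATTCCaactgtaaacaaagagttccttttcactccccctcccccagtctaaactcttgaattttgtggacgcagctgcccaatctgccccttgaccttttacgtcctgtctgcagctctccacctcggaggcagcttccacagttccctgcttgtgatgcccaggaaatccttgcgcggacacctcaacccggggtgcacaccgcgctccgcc

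Ajuba (chromosome 14, 54567472 to 54577558 on the minus strand of mm10) had 231 and 274 CPM at day 21 against 0.185 and 0.183 CPM at day 0, and 194, 335 and 151 CPM in Non-NE against 0.0954 and 0.317 CPM in NE cells. The high groups overlap each other, and both low groups are near 0. The log2 changes were 10.32 (SE 0.62) at day 21 and 10.05 (SE 0.61) in Non-NE cells, and their difference was 0.27 (SE 1.13, edgeR adjusted p = 0.906). Anxa3, an annexin, showed the same pattern with 844 ± 2.62 CPM at day 21 against 0.692 ± 0.201 at day 0 and 827 ± 438 CPM in Non-NE against 0.746 ± 0.159 in NE cells (difference 0.14, SE 0.83). Over the 1126 genes of this class with more than 3 counts in each group, the median SE of the difference was 0.358. Differences above 1 on the log2 scale could go uncalled, as did those of Yap1 (1.08, SE 0.46), Myb (1.21, SE 0.47) and Islr2 (3.10, SE 1.05).

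Hippo pathway members often rose too, but this list is not independent of the targets. Of 30, 16 rose at day 21 and 15 in Non-NE cells, 2 fell in Non-NE cells, and 10 rose in both with no called difference. Among these 10 are Yap1, whose count includes the transgene, and Lats2, Amotl2 and Ptpn14, which are also listed targets. Lats2, the kinase that phosphorylates YAP, reached 261 ± 24.1 CPM at day 21 against 0.138 ± 0.0641 at day 0, and 111 ± 35.5 CPM in Non-NE cells against 0 in NE cells. Tead4 had 61.1 and 69.7 CPM at day 21 against 0 at day 0, at least 473-fold, and stood at 31.7, 11.3 and 12.9 CPM in Non-NE cells. The upstream members differed: Stk4, which encodes MST1, and Nf2 fell in Non-NE cells (log2 -1.50 and -0.61) and had changes of 0.39 and 0.09 at day 21, neither called, with the difference called. Tjp1, Taok3 and Mob1b rose at day 21 alone. When day 0 replicate 1 was omitted, the YAP5SA change was higher for 1 member in place of 5, and lower for 0 in place of 3, as also by library totals for the lower ones.

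Cytoskeletal and adhesion genes that rose in both did so mostly with no called difference. Of 31 tested actin and focal adhesion genes 19 rose at day 21 and 27 in Non-NE cells, with none lower, 18 in both. For 11 the difference was not called, among them Vcl (vinculin), Tln1 (talin) and Fermt2 (kindlin-2), with log2 changes of 2.69, 1.98 and 1.79 at day 21 and 3.70, 2.73 and 1.63 in Non-NE cells. For 6 the YAP5SA change was smaller, including Tpm1 (tropomyosin; 1.48 at day 21 and 4.82 in Non-NE cells), Flna (filamin A; 3.16 at day 21 and 4.61 in Non-NE cells) and Zyx (zyxin; 2.25 at day 21 and 3.75 in Non-NE cells). Tns1, a tensin, rose more in YAP5SA cells. The count with a lower YAP5SA change, 7, was 3 under scaling by library totals and 1 without NE replicate 3 or day 0 replicate 1, and the rises at day 21 were 10 without day 0 replicate 2.

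Integrins and laminins, the receptors and basement membrane proteins of cell adhesion, rose in part together and in part on one side. Of 26, 15 rose at day 21 and 18 in Non-NE cells, 9 in both. The laminin and integrin chains Lama3, Itgb4 and Itgb6, all known from epithelia, rose at day 21 alone with the difference called. Lama3 had 222 and 218 CPM at day 21 against 0 at day 0, and 0.33, 0.853 and 1.71 CPM in Non-NE against 0.477 and 0.211 CPM in NE cells. The day 21 libraries stand alone above the others. Lamb1, a chain of most laminins, rose less at day 21 (log2 1.81 at day 21 and 6.09 in Non-NE cells), and Itga5, which with Itgb1 binds fibronectin, rose in both (4.49 at day 21 and 5.41 in Non-NE cells). With day 0 replicate 1 left out, 8 rose at day 21, and without NE replicate 1, 12 rose in Non-NE cells.

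Neuroendocrine genes fell in both, and far less in YAP5SA cells. Of 23 tested neuroendocrine transcription factors of 32 listed, 10 fell at day 21 (8.79% of all genes did) and 18 in Non-NE cells (25.3% of all genes). For 9 both fell and the YAP5SA change was smaller, and the medians were -1.41 at day 21 and -3.30 in Non-NE cells. Insm1, a zinc finger factor of the neuroendocrine lineage, had 65.4 and 65.6 CPM at day 21 against 394 and 411 CPM at day 0, and 0.165, 0.609 and 0.534 CPM in Non-NE against 469 and 505 CPM in NE cells. The day 21 libraries lie well below day 0 and well above the Non-NE libraries. Its level fell 6.15-fold at day 21 and 1027-fold in Non-NE cells, a log2 difference of 7.38 (SE 0.36, edgeR adjusted p = 2.37e-05). St18, Sox1, Prox1 and Nkx2-1 showed the same order. Foxa1 fell in both with no called difference (-1.36 at day 21 and -2.05 in Non-NE cells). Without day 21 replicate 1 the falls at day 21 were 6, while 11 had the higher YAP5SA change.

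Genes of the neuroendocrine output followed. Secretory granule and hormone genes fell in 10 of 24 at day 21 and 19 in Non-NE cells, with medians of -1.31 at day 21 and -6.65 in Non-NE cells, and synaptic vesicle genes in 9 of 27 at day 21 and 23 in Non-NE cells, with medians of -1.13 at day 21 and -5.06 in Non-NE cells. Neuronal cytoskeleton and adhesion genes fell in 12 of 31 at day 21 and 24 in Non-NE cells, and potassium channels in 9 of 22 at day 21 and 21 in Non-NE cells. The YAP5SA change was higher in 15 granule, 19 synaptic, 18 neuronal and 19 channel genes. Snap25, a SNARE protein of vesicle fusion, had 127 and 94.8 CPM at day 21 against 422 and 424 CPM at day 0, and 0, 0.122 and 0.32 CPM in Non-NE against 319.8 and 384 CPM in NE cells. The day 21 libraries lie below day 0 and far above the Non-NE libraries, which are near 0. Chga, chromogranin A, had 135 ± 5.38 CPM at day 21 against 509.8 ± 8.31 at day 0 and 0.224 ± 0.214 CPM in Non-NE against 316 ± 1.48 in NE cells. Cplx1 (complexin) went opposite ways, up at day 21 and down in Non-NE cells. Falls at day 21 numbered 4 granule genes without day 21 replicate 1, 3 synaptic genes without day 21 replicate 2, and 4 neuronal and 6 channel genes without day 0 replicate 1. Without the last library the YAP5SA change was higher in 14 granule, 11 synaptic, 13 neuronal and 12 channel genes. Falls in Non-NE cells were at least 17 granule and 23 synaptic genes in each fit without 1 library. Rest, the repressor of neuronal genes, had 32 ± 3.06 CPM at day 21 against 0.0917 ± 0.13 at day 0 and 65.1 ± 9.61 CPM in Non-NE against 0.482 ± 0.533 in NE cells.

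Vwf, a haemostatic glycoprotein best known from endothelium, also fell in both and less at day 21. It had 109 and 133 CPM at day 21 against 362 and 376 CPM at day 0, and 0, 0.366 and 0.107 CPM in Non-NE against 384 and 212 CPM in NE cells. The other endothelial markers had at most 5.84 CPM as a group mean, that of Plvap in Non-NE cells. Few genes fell further at day 21. Cdk5r1, the p35 activator of CDK5, had 3.53 and 3.27 CPM at day 21 against 47.2 and 50.6 CPM at day 0, and 4.95, 9.87 and 7.68 CPM in Non-NE against 40.1 and 26.3 CPM in NE cells, and Srd5a1, a steroid reductase, and Prkar2b, a protein kinase A subunit, followed the same order. Their differences of -1.71, -1.42 and -1.38 lost their calls in 9, 6 and 6 of 21 alternative fits. Hdac9, Myb and Islr2 fell in both by large amounts with no called difference, as in Hdac9 with log2 changes of -4.57 (SE 0.73) at day 21 and -3.61 (SE 0.59) in Non-NE cells.

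**Figure D2:**
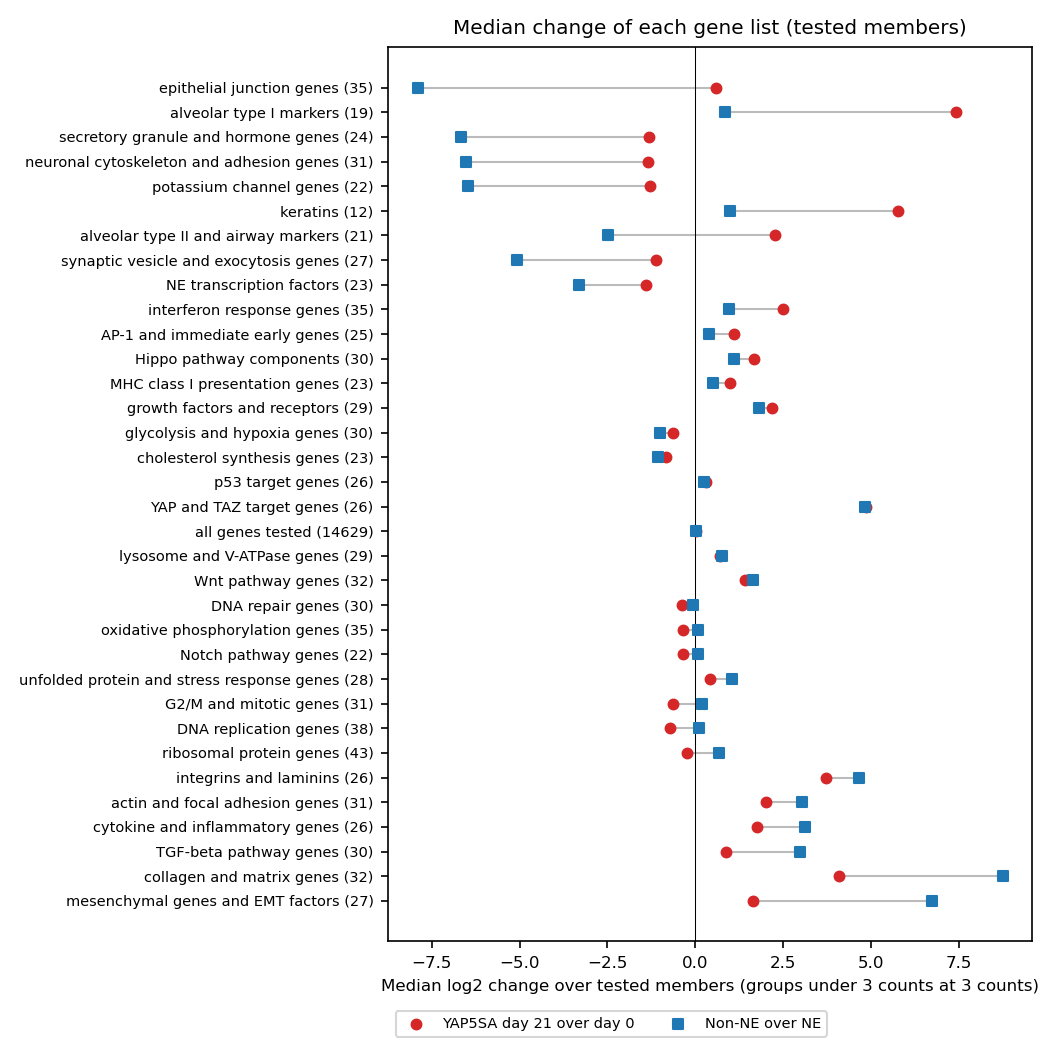
Median log2 change of each gene list (tested members in brackets) at day 21 over day 0 (circles) and in Non-NE over NE (squares), with groups under 3 counts set at 3 counts, ordered by the gap. YAP and TAZ targets have medians of 4.86 at day 21 and 4.81 in Non-NE cells, whereas epithelial junction genes have 0.581 at day 21 and -7.90 in Non-NE cells.

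Matrix and mesenchymal genes rose in both, and the fibrillar collagens and their partners reached their high levels in Non-NE cells. Of 32 tested matrix genes 17 rose at day 21 and 28 in Non-NE cells, all 17 among them, with medians of 4.09 at day 21 and 8.74 in Non-NE cells. Many were near 0 at day 0 and in NE cells and passed the count filter only through a high group, which fixes part of that direction. For 15 that rose in both the difference was not called. Sparc, a collagen-binding glycoprotein, reached 1721 ± 112 CPM at day 21 and 7987 ± 3516 CPM in Non-NE cells, and Lox, the lysyl oxidase that crosslinks collagen, 509 ± 47.5 CPM at day 21 and 3551 ± 1963 CPM in Non-NE cells. The difference for Lox was -2.02 (SE 1.89), which leaves a wide range. Col1a1, the main fibrillar collagen chain, had 3.91 and 3.27 CPM at day 21 against 0.464 and 0.275 CPM at day 0, and 14593, 5789 and 9536 CPM in Non-NE against 0.954 and 3.49 CPM in NE cells. Day 21 lies above day 0 and overlaps NE cells, and the Non-NE libraries are high. The difference of -8.90 (SE 1.41, edgeR adjusted p = 0.00418) lost its call without day 0 replicate 1, as did those of Fbln2 (fibulin-2) and Col1a2. Without day 0 replicate 2, 6 matrix genes rose at day 21, and without day 0 replicate 1, 3 in place of 7 had the lower YAP5SA change.

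Collagens that rose in Non-NE cells alone with the difference called were Col1a2, Col5a1, Col6a1 and Col16a1, together with fibrillin 1, Fbn1. Col1a2 had 0.0954 and 0.672 CPM at day 21 against 0.371 and 0.0917 CPM at day 0, and 2692, 3246 and 5422 CPM in Non-NE against 0.286 and 0.845 CPM in NE cells. Basement membrane collagens Col4a1 and Col4a2 rose in both (5.78 and 5.29 at day 21, 3.96 and 3.51 in Non-NE cells). Mesenchymal genes and factors of epithelial-mesenchymal transition rose in 10 of 27 at day 21 and 21 in Non-NE cells, with medians of 1.64 at day 21 (21 members) and 6.72 in Non-NE cells (26 members), since members at or under 3 counts in both groups of a pair have no change. The factors Twist1, Twist2, Foxc2, Prrx1 and Zeb2 had 0 counts at day 21 and day 0, and 45.6, 12.7, 14.7, 22.8 and 66.9 CPM in Non-NE cells. Vim, the mesenchymal filament, had 23.1 and 18.8 CPM at day 21 against 0 at day 0, and 4050.4, 8253 and 7983 CPM in Non-NE against 0.0954 and 1.69 CPM in NE cells. With 0 counts at day 0 its difference cannot be estimated. Snai2 rose in Non-NE cells alone and Snai1, Mmp14 and Pdgfrb rose less at day 21. Without day 0 replicate 1, 6 rose at day 21 and 2 in place of 5 had the lower YAP5SA change.

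Fibroblast markers moved with this group. Summed over 13 markers they stood at 393 and 395 CPM at day 21, 50.2 and 56.7 CPM at day 0, 7640 to 17800 CPM in Non-NE and 33.4 and 83.7 CPM in NE cells, and 8 of 10 tested rose in Non-NE cells, 5 without NE replicate 3. Their part in the matrix result was not tested. Most of the day 21 sum was Gsn (gelsolin) at 361 CPM, and most of the Non-NE sum Col1a1 and Col3a1. Tcf21 had 0 counts in all groups, and Lum and Dcn stood at 1.16 and 24.2 CPM in Non-NE cells. Galectin-1, Lgals1, was among the widest gaps of all, with 0.763 and 0.672 CPM at day 21 against 0.556 and 0.917 CPM at day 0, and 3291, 3823 and 4598 CPM in Non-NE against 1.24 and 1.27 CPM in NE cells, a difference of -11.63 (SE 0.52, edgeR adjusted p = 2.35e-05). TGF-beta pathway genes rose in 9 of 30 at day 21 (15.2% of all genes did), 4 without day 0 replicate 1, and 16 in Non-NE cells (24.1% of all genes). Smad3, Smad7, Inhba, Tgfb2 and Bmp4 were shared with no called difference. Fstl1, Id3, Ltbp3 and Smad6 rose in Non-NE cells alone, Fstl1 to 559, 1036 and 646 CPM against 0.763 and 0.634 CPM in NE cells while it had 6.46 ± 0.849 CPM at day 21 and 12.8 ± 1.01 at day 0.

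Epithelial genes had the widest gap between medians of the lists plotted. Of 35 tested junction and epithelial identity genes, 33 fell in Non-NE cells and 12 rose at day 21 with 3 lower, and the difference was called for 34, with the YAP5SA change higher in 33. The medians were 0.581 at day 21 and -7.90 in Non-NE cells. For 19 the fall in Non-NE cells had no called change beside it at day 21, and 10 went opposite ways (1.44% of all genes did so in this direction). Cdh1, E-cadherin, had 1252 and 1242 CPM at day 21 against 858 and 892 CPM at day 0, and 0.825, 8.29 and 5.66 CPM in Non-NE against 928 and 1351 CPM in NE cells. Day 21, day 0 and NE libraries are high and the Non-NE libraries low. The difference was 8.32 (SE 0.94, edgeR adjusted p = 0.000884). The splicing factor Esrp1 (10.95, SE 0.26), the transcription factor Grhl2, occludin (Ocln) and desmoplakin (Dsp) belonged with it.

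The 10 opposite members included Cdcp1, Dsc2, Cldn3, F11r, Marveld3, Grhl1, Prss8, St14 and Cdh3, which take in tight junction, desmosome and cadherin proteins and the protease pair matriptase (St14) and prostasin (Prss8). F11r, the junctional adhesion molecule JAM-A, had 424 and 434 CPM at day 21 against 175 and 168 CPM at day 0, and 67.8, 103 and 79.1 CPM in Non-NE against 181 and 107 CPM in NE cells. Neither pair of groups overlaps. Its log2 changes were 1.32 (SE 0.28) at day 21 and -0.79 (SE 0.25) in Non-NE cells. Cldn4, a claudin of barrier epithelia, rose to 489 ± 32 CPM at day 21 against 6.09 ± 0.212 at day 0 and was near 0 in Non-NE and NE cells. Epcam, Elf3 and Ovol1 fell in both and less at day 21, Epcam to 443 ± 4.54 CPM against 832 ± 7.81 at day 0, with 3 counts over the Non-NE libraries. When day 0 replicate 1 was omitted, the opposite members were 2 and the rises at day 21 were 3, while 32 still had the higher YAP5SA change. By library totals 8 went opposite ways.

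Over all genes tested, 211 rose at day 21 and fell in Non-NE cells, 49 to 67 without any 1 day 0 or day 21 library, and those with the largest difference were Cdcp1, Gda, S100a14, Mal2 and Dsc2. Cdcp1, a membrane glycoprotein phosphorylated by Src kinases (chromosome 9, 123170824 to 123216038 on the minus strand), had 315 and 333 CPM at day 21 against 79.4 and 86.8 CPM at day 0, and 0.165, 0.366 and 0 CPM in Non-NE against 74.3 and 159 CPM in NE cells. It rose 3.9-fold at day 21 and fell 637-fold in Non-NE cells, a log2 difference of 11.28 (SE 0.77, edgeR adjusted p = 7.59e-05), called in all 21 alternative fits. S100a14, a calcium-binding protein of epithelia (chromosome 3, 90526856 to 90528837), had 556 and 623 CPM at day 21 against 28.3 and 25.9 CPM at day 0, and 0, 0 and 0.427 CPM in Non-NE against 14.3 and 11.4 CPM in NE cells. Mal2, a protein of transcytosis in polarised epithelia, had 650.2 ± 70.0 CPM at day 21 against 203 ± 5.35 at day 0 and 0.411 ± 0.384 CPM in Non-NE against 184 ± 19.2 in NE cells. Dsc2, a desmosomal cadherin, had 113 ± 9.01 CPM at day 21 against 34 ± 1.23 at day 0 and 0.163 ± 0.281 CPM in Non-NE against 73.2 ± 23.1 in NE cells. In these genes neither pair of groups overlaps, and the Non-NE libraries are near 0. The Non-NE level rests on 4 counts summed over its libraries for Cdcp1, S100a14 and Dsc2, and on 10 for Mal2. The size of these falls, 637-fold included, and the rank of the differences are therefore uncertain. Gda, guanine deaminase, is less certain: its NE libraries held 1.05 and 24.9 CPM, and the call was lost without either day 0 library.

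Fewer genes, 58 (0.396%), fell at day 21 and rose in Non-NE cells. The largest differences were those of Angpt1, the ligand of the TIE2 receptor, Maf, a bZIP factor, Apcdd1, a membrane inhibitor of Wnt signalling, Chst3, a chondroitin sulfotransferase, and Ier5l. Angpt1 had 0.382 and 0.192 CPM at day 21 against 7.61 and 8.8 CPM at day 0, and 45.4, 26.6 and 157 CPM in Non-NE against 12.5 and 18.3 CPM in NE cells, and its difference of -7.09 (SE 1.28) lost its call without day 21 replicate 2. Apcdd1 had 1.81 and 1.44 CPM at day 21 against 12.5 and 14.7 CPM at day 0, and 47, 101 and 78 CPM in Non-NE against 19.2 and 13.4 CPM in NE cells. The Non-NE libraries are the highest and the day 21 libraries the lowest of the 4 groups. Its difference was -5.26 (SE 0.55, edgeR adjusted p = 0.000609), and those of Maf, Chst3 and Ier5l were -6.06 (SE 0.64), -5.09 (SE 0.82) and -4.78 (SE 0.63). Without any 1 day 0 or day 21 library this class held 3 to 5 genes, and without Non-NE replicate 1 it held 138. With a required change of 1.5-fold, 2 genes of this kind were called, and 42 under scaling by library totals.

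**Figure D3:**
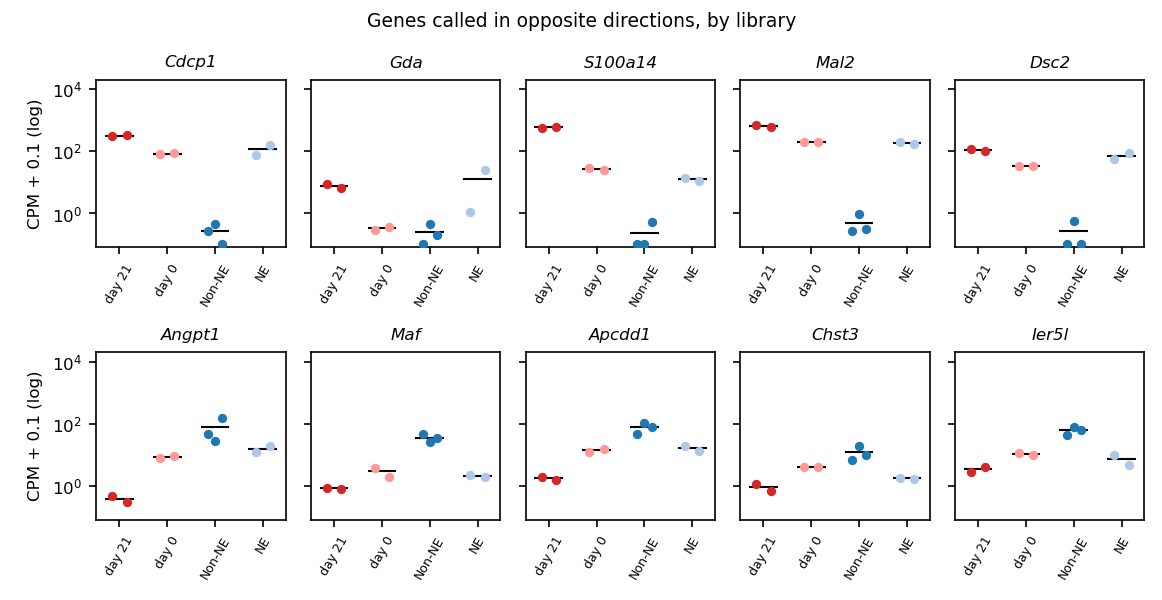
CPM + 0.1 on a log axis for the 10 named genes called in opposite directions, with a point per library (2 at day 21, 2 at day 0, 3 Non-NE, 2 NE) and a bar at the mean. In the upper row day 21 lies above day 0 and Non-NE near the bottom of the axis; in the lower row Non-NE lies above NE and day 21 below day 0.

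Markers of the alveolar type I cell, the flat gas-exchange cell of the lung, rose more widely in YAP5SA cells than in Non-NE cells. Of 19 tested, 17 rose at day 21 and 7 in Non-NE cells (4 without any 1 NE, day 0 or day 21 library) with 4 lower, with medians of 7.42 at day 21 and 0.84 in Non-NE cells, and the YAP5SA change was higher for 9 and lower for 0. Of the 19, 12 had more than 3 counts in each group. Members near 0 in the other groups passed the count filter only through a high group, which fixes part of that direction. Summed over 20 markers the level was 13800 and 14900 CPM at day 21, 2110 and 2130 CPM at day 0, 1690 to 2280 CPM in Non-NE and 1500 and 1730 CPM in NE cells. Ager, the receptor RAGE, had 1687 and 2124 CPM at day 21 against 4.45 and 5.14 CPM at day 0, and 1.49, 3.29 and 4.7 CPM in Non-NE against 4.01 and 1.06 CPM in NE cells. Day 21 is high and the other groups overlap. Its difference was 8.29 (SE 0.83, edgeR adjusted p = 0.000484). Clic5, a chloride intracellular channel, was at 876 ± 1.86 CPM at day 21 with 0 counts at day 0 and 1 count each in Non-NE and NE cells, and its call was lost without NE replicate 1.

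Of the other type I markers, the sodium channel subunit Scnn1g, Vegfa, Spock2 and Akap5 rose at day 21 and fell in Non-NE cells. Vegfa, the vascular growth factor, had 1091 and 1258 CPM at day 21 against 516 and 488 CPM at day 0, and 94.7, 172 and 113 CPM in Non-NE against 373 and 306 CPM in NE cells. Emp2 and Col4a3 rose in both and more at day 21, whereas Cav1, Hopx, Aqp5, Igfbp2 and Gprc5a rose in both with no called difference. Hopx rested mostly on 1 Non-NE library, with 5.45, 0.609 and 57.7 CPM. With day 0 replicate 1 left out, 11 markers rose at day 21 and 8 had the higher YAP5SA change. Alveolar type II and airway markers rose in 9 of 21 at day 21 and fell in 9 in Non-NE cells, as with the surfactant gene Sftpd at 13.5 ± 0.403 CPM at day 21 against 0 at day 0. Keratins rose in 6 of 12 at day 21 and in 4 in Non-NE cells, where 3 fell. Those 4 rises were 0 to 2 without any 1 NE, day 0 or day 21 library. In the fit without day 0 replicate 1, 3 type II and airway markers and 3 keratins rose at day 21. Only 7 of 21 type II and airway markers and 5 of 12 keratins had more than 3 counts in each group. The same limit of the count filter holds for them. Krt19 reached 899.6 ± 64.3 CPM at day 21 against 3.87 ± 0.0995 at day 0, and Krt4 had 69.9 and 71.3 CPM at day 21 against 1.39 and 1.19 CPM at day 0, and 1 count over the Non-NE libraries against 5.34 and 7.82 CPM in NE cells. Krt8 and Krt18, of simple epithelia, had changes of -0.09 and 0.15 at day 21, neither called, and fell in Non-NE cells.

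Genes that rose in both with the larger rise in YAP5SA cells numbered 83 and were led by Rab11fip5, an effector of the recycling endosome, Abca5, an ABC transporter, and Gpc4, a glypican. Rab11fip5 had 225 and 261 CPM at day 21 against 0.185 and 0.275 CPM at day 0, and 53, 71.5 and 87 CPM in Non-NE against 4.01 and 15.2 CPM in NE cells. Day 0 lies below NE cells and day 21 above Non-NE cells. Its difference was 7.08 (SE 0.92, edgeR adjusted p = 0.00169), that of Abca5 6.69 (SE 0.50), and that of Gpc4, 6.10 (SE 1.48), lost its call in 6 of 21 alternative fits.

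Interferon response genes rose in 21 of 35 at day 21 and in 13 in Non-NE cells, where 3 fell. The medians were 2.5 at day 21 and 0.954 in Non-NE cells. In 9 genes both rose with no called difference. In 7 (20%) the YAP5SA change was higher, against 15.5% of all genes, and in 0 lower, against 6.86%. The difference was thus called no more often than over all genes (22.4%). Irf7, the factor that amplifies interferon signalling, had 30.5 and 28.4 CPM at day 21 against 0.927 and 1.38 CPM at day 0, and 0.99, 0.609 and 2.03 CPM in Non-NE against 1.81 and 1.27 CPM in NE cells. Day 21 lies far above the other groups, which overlap. Ifit1 and Rsad2 (viperin), 2 antiviral effectors, went opposite ways. Ifit1 had 90.5 and 68.4 CPM at day 21 against 15.1 and 12.5 CPM at day 0, and 1.16, 0.122 and 0.747 CPM in Non-NE against 2.29 and 6.44 CPM in NE cells, a difference of 5.25 (SE 0.90, edgeR adjusted p = 0.0059). When day 0 replicate 1 was omitted, 6 genes rose at day 21, 3 had the higher YAP5SA change and 0 went opposite ways. Shared members included Ddx58 (RIG-I), Isg15 and Xaf1, Ddx58 at 128 ± 1.56 CPM at day 21 against 6.04 ± 0.408 at day 0 and 98.3 ± 17.2 CPM in Non-NE against 4.17 ± 1.72 in NE cells.

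The interferon response motif, GAAA followed by any 2 bases and GAAA, was found on either strand in 16 of 29 promoters of 25 of these genes (55.2%), against 3.44% of all promoters and 4.61% of promoters of the genes up in YAP5SA and down in Non-NE cells. The Ifit1 promoter (RefSeq, GRCm38.p6, chr19:34640639-34640938, plus strand) is shown as that of 1 of the 2 members with opposite changes, with its 2 matches in capitals, both read from the other strand.
Ifit1: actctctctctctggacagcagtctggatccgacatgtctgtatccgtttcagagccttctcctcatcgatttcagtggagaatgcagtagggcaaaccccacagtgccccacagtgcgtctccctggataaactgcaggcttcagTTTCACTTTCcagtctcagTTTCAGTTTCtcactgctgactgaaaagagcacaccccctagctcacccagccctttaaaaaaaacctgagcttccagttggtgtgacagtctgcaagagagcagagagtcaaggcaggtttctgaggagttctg

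**Figure D4:**
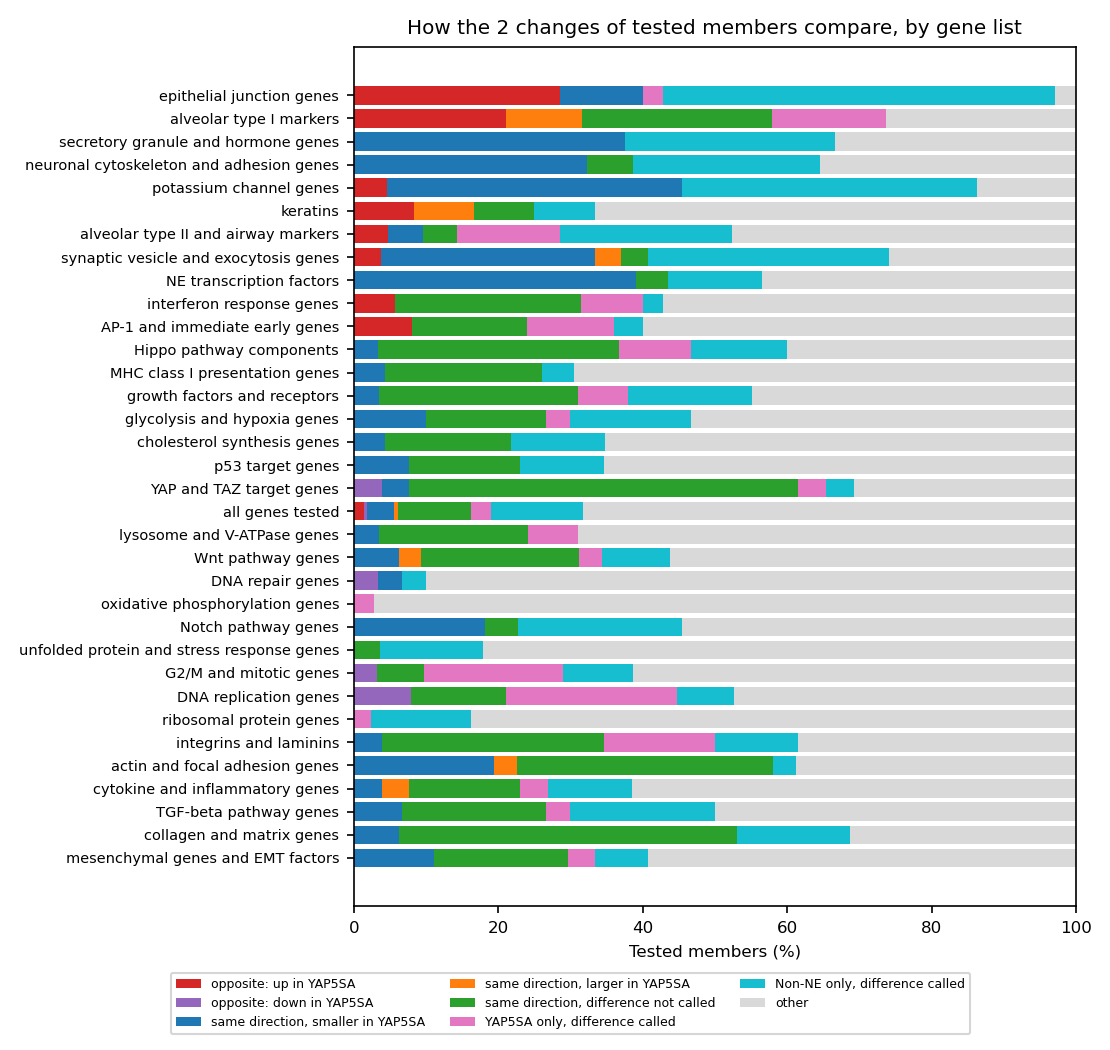
Share of tested members of each gene list (per cent) by how the changes compare, with all genes tested for reference, in the same order as the plot of medians. Epithelial junction and alveolar type I lists have the widest opposite segments, 10 of 35 and 4 of 19 members, and YAP and TAZ targets the widest segment of genes called in both in the same direction with no called difference, 14 of 26.

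Proliferation genes parted in the other direction. Of 31 mitotic genes 12 fell at day 21 and 0 rose, and in Non-NE cells 4 rose and 3 fell. Of 38 replication genes 19 fell and 1 rose at day 21, and 8 rose and 6 fell in Non-NE cells. Of all genes 8.79% fell and 15.2% rose at day 21, and 24.1% rose and 25.3% fell in Non-NE cells. The Non-NE counts of both lists lie under those shares. The YAP5SA change was lower for 12 and 17 genes (6.86% of all genes) and higher for 0 in both lists (15.5% of all genes). Medians at day 21 were -0.637 and -0.729, while those in Non-NE cells, 0.198 and 0.113, turn negative under scaling by library totals. Tyms, thymidylate synthase, had 34.4 and 28 CPM at day 21 against 83.1 and 84.6 CPM at day 0, and 149, 112 and 109.9 CPM in Non-NE against 59.6 and 58.6 CPM in NE cells. Its difference was -2.49 (SE 0.28, edgeR adjusted p = 0.00081). Mcm4, of the replicative helicase, Pola2 and Birc5 went opposite ways too, and Cenpe, Cdk1, Ccna2, Mcm7 and Pcna fell at day 21 alone with the difference called. With day 0 replicate 1 left out, the falls at day 21 were 1 mitotic and 4 replication genes, and the lower differences 2 and 3; by library totals the lower differences were 7 in each list. Ribosomal protein genes rose in none of 43 at day 21 and in 13 in Non-NE cells (24.1% of all genes did), 6 without NE replicate 3. Many have near-identical copies, so their counts are uncertain.

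Signalling lists went mixed ways. Of all genes 15.2% rose and 8.79% fell at day 21, and 24.1% rose and 25.3% fell in Non-NE cells. Among 25 AP-1 and immediate early genes 10 rose at day 21 and 8 in Non-NE cells. Fos and Myc rose at day 21 and fell in Non-NE cells. Myc had 90.2 and 94.5 CPM at day 21 against 29.4 and 28.8 CPM at day 0, and 139, 181 and 151 CPM in Non-NE against 656 and 437 CPM in NE cells. The day 0 and NE libraries stand further apart than those of day 21 and Non-NE cells. Fosl1 rose in Non-NE cells alone, to 74.6 CPM against 1.85 in NE cells. In the Wnt list 11 rose and 4 fell of 32 at day 21, and 15 rose and 6 fell in Non-NE cells. Wnt4 fell in Non-NE cells with a called difference, and the ligand Wnt7b rose in both, to 393 ± 26.1 CPM at day 21 and 10.0 ± 9.79 CPM in Non-NE cells. In the Notch list of 22, Notch2 rose in both (2.79 at day 21 and 3.70 in Non-NE cells), whereas the ligands Dll1 and Jag2 fell in Non-NE cells alone with the difference called, and Dll3 fell in both and less at day 21. The rises at day 21 were 3 AP-1, 5 Wnt and 1 Notch genes in the fit without day 0 replicate 1, and those in Non-NE cells were 3 AP-1 genes without NE replicate 3 and 9 Wnt genes without NE replicate 1.

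Growth factor and receptor genes rose in 10 of 29 at day 21 and 14 in Non-NE cells, with 8 shared and no called difference, among them Hbegf, Ereg, Nrg1, Epha2 and Igf1r. Erbb3, Fgfr2 and Igf2 fell in Non-NE cells alone with the difference called, Igf2 being at 0.99 CPM in Non-NE against 298 CPM in NE cells and 2455 CPM at day 21 against 934 at day 0. Antigen presentation genes of MHC class I rose in 8 of 23 in each, and B2m rose less at day 21 (5.32 at day 21 and 7.62 in Non-NE cells), reaching 399 ± 91.7 CPM at day 21 and 375 ± 67.7 CPM in Non-NE cells. Cytokine genes rose in 9 of 26 at day 21 and 14 in Non-NE cells. Beside the rises in these 3 lists, 15.2% of all genes rose at day 21 and 24.1% in Non-NE cells. Cd274, which encodes PD-L1, had 118 and 118 CPM at day 21 against 7.88 and 6.05 CPM at day 0, and 1.65, 2.8 and 2.45 CPM in Non-NE against 4.2 and 2.96 CPM in NE cells, a rise at day 21 alone with a difference of 4.70 (SE 0.40). Cxcl12, Il33 and Cxcl1 were high in Non-NE cells and at or near 0 elsewhere. The rises at day 21 were 5 growth factor and 2 MHC genes without day 0 replicate 1 and 5 cytokine genes without day 0 replicate 2, and 9 growth factor genes rose in Non-NE cells without NE replicate 3.

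Metabolic and stress lists had more called changes in Non-NE cells than at day 21, as had all genes tested (24% at day 21 and 49.4% in Non-NE cells). These counts rest on the pooled spread. With a weight per library set the order over all genes was reversed (9600 at day 21 and 5781 in Non-NE cells). Glycolysis and hypoxia genes fell in 7 of 30 at day 21 and 17 in Non-NE cells, with Ldha, Gpi1 and Bnip3l falling in both with no called difference and Aldoc and Bnip3 falling less at day 21. Without day 21 replicate 2 the falls at day 21 were 2. Cholesterol synthesis genes fell in 6 of 23 at day 21 and 10 in Non-NE cells, 5 of them in both, with Insig1 at -2.28 at day 21 and -2.94 in Non-NE cells. Unfolded protein response genes rose in 2 of 28 at day 21 and 12 in Non-NE cells, and lysosome genes in 9 of 29 at day 21 and 11 in Non-NE cells. Oxidative phosphorylation genes fell in 5 of 35 at day 21, with 4 higher and 2 lower in Non-NE cells, and the difference was called for 1. The difference was called for 4 of 30 DNA repair genes and 5 of 26 p53 targets, no more often than for all genes (22.4%). Cdkn1a, the p21 inhibitor and a p53 target, fell in both and less at day 21 (-1.77 at day 21 and -4.22 in Non-NE cells). In the fit without day 0 replicate 1, 1 cholesterol and 0 oxidative phosphorylation genes fell and 0 unfolded protein response and 3 lysosome genes rose at day 21, and 12 oxidative phosphorylation genes differed without Non-NE replicate 1.

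Some named genes changed on one side alone. Plagl1, an imprinted zinc finger gene, and Scel, sciellin of the cornified envelope, rose at day 21 with the difference called. The call was lost for Plagl1 without NE replicate 1 (edgeR adjusted p = 0.0583) and for Scel without NE replicate 3 (edgeR adjusted p = 0.123). Scel had 249.8 and 221 CPM at day 21 against 0.185 and 0.183 CPM at day 0, and was near 0 in Non-NE and NE cells. Gpc1, a glypican, and Bahcc1 fell at day 21 to 82.3 ± 9.67 and 12.3 ± 5.14 CPM against 316 ± 2.96 and 52.9 ± 0.426 at day 0, and lost the called difference in 6 and 3 of 21 alternative fits. Peg3, an imprinted gene, fell in Non-NE cells alone, with 261 and 242 CPM at day 21 against 219 and 215 CPM at day 0, and 0, 0.488 and 0.213 CPM in Non-NE against 438 and 719 CPM in NE cells. Kif1a, a motor of axonal transport, had the same pattern. Tcf7l2, the main Wnt factor of many epithelia, Irx1 and Mn1 were at 2 or fewer counts at day 21 and at 39.8 ± 16.6, 37.8 ± 19.6 and 34.5 ± 12.6 CPM in Non-NE cells, and their differences lost the call in 8 or 9 of 20 alternative fits. Adamts6 kept it in all 20, with 0 counts at day 21 and 23.9 ± 10.1 CPM in Non-NE cells. Slc6a14, an amino acid transporter, showed the reverse, at 428 ± 65.9 CPM at day 21 and 0 in Non-NE cells.

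**Figure D5:**
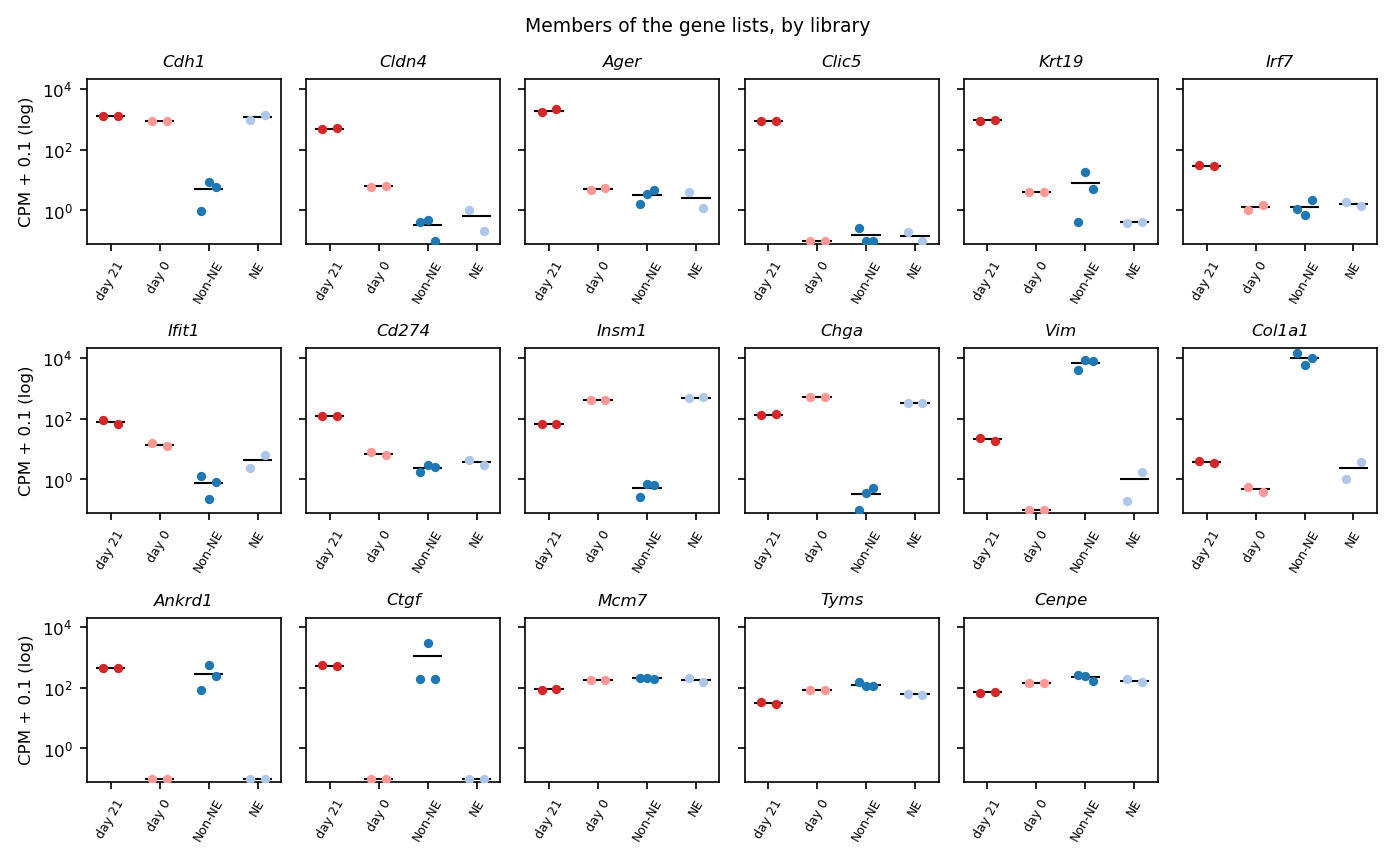
CPM + 0.1 on a log axis for 17 list members, with a point per library at day 21, day 0, in Non-NE and in NE cells and a bar at the mean. Cdh1 is low in Non-NE cells alone, Ager, Clic5, Irf7 and Cd274 are high at day 21 alone, Insm1 and Chga are intermediate at day 21, and Ankrd1 and Ctgf are high at day 21 and in Non-NE cells.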

How the data were processed

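RNA-seq counts per gene were deposited by the authors as whole numbers. Per the submitters' processing notes, STAR 2.4.2 and featureCounts were used with mm10; the annotation and whether strand was counted are not given in the sources used here. NE replicate 2 was left out, since its counts lie at or under those of day 0 replicate 1 for all 32926 symbols; the next closest pair has 2995 symbols the other way. Of the symbols, 25 look like dates and 30152 matched GENCODE M21, used for coordinates.

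Genes were filtered with filterByExpr, scaled by TMM and tested with edgeR 4.0.16 (quasi-likelihood, 4 group means over 9 libraries, Benjamini-Hochberg at 0.05) in R 4.3.3. The difference is the day 21 minus day 0 log2 change less the Non-NE minus NE log2 change. Named genes are those with the largest difference in each class (the smaller of both changes where no difference was called), among genes with more than 3 counts in each group, at least 10 CPM in a group and no overlap between libraries of a called pair. To these come 4 genes each at or under 3 counts at day 21 or in Non-NE cells, Yap1, floxed genes and list members. Some genes that the rule or the lists hold are counted but not reported here by name. List examples and those in the additional observations were picked after their values were seen. The members and lists were chosen with earlier results of these data known. Promoters are from RefSeq GRCm38.p6, with 10620 of 14629 tested genes matched. Alternatives were DESeq2 1.42.0, limma 3.58.1 voom, other scalings and filters, a minimum change, added libraries, a replicate block and leaving out each library. The scripts were tested on simulated data. Floors cover counting error only.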

Additional observations from a re-analysis of the deposited data

Results flagged for a closer look

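The day 21 change and the Non-NE change differed for 3275 genes by the edgeR test of the difference itself.

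Days 3 and 7 of the YAP5SA series entered no test above, where only their Yap1 levels are given. The 5 named genes that went up in YAP5SA and down in Non-NE cells were above day 0 on these days. Levels by day were scaled by TMM over all 14 libraries, NE replicate 2 included, with n = 2 for each day. Mean levels at days 0, 3, 7 and 21 were 83.5, 164, 269 and 326 CPM for Cdcp1, 0.232, 1.13, 7.36 and 7.51 CPM for Gda, 27.2, 149, 584 and 592 CPM for S100a14, 205, 816, 1200 and 654 CPM for Mal2, and 34.2, 39, 76.4 and 114 CPM for Dsc2. All days share the day 0 libraries, and the genes were chosen with day 21, so these are values only. Of the 211 genes of this class both libraries of day 3 lay above both of day 0 in 181 (85.8%) and those of day 7 in 200 (94.8%), against 37.4% and 43.9% of all genes tested.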

How the results depend on the processing

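Of 3275 genes with a called difference, other scalings, filters and tests gave counts within 1.5 times that number. The day 21 count of 3514 became 9600 with voom and a weight per library set and 2148 with a required change of 1.5-fold. The Non-NE count of 7229 became 5781 and 5138 in these fits. The 269 opposite genes became 686, 118 and, with days 3 and 7 in the fit, 514. The 545 genes with the smaller YAP5SA change became 1366, 328 and 917, with DESeq2 834, and 320 with more than 3 counts required in each group. The 88 with the larger change became 146 with DESeq2, 32 with the required change and 157 with days 3 and 7. The 1470 shared genes without a called difference became 2244 with weighted voom and 911 with the required change. Leaving out 1 library gave 935 to 4808 genes called at day 21, 5845 to 7849 in Non-NE cells, 1289 to 4330 differing, 53 to 447 opposite, 126 to 816 smaller, 25 to 134 larger and 554 to 1842 shared without a called difference. Leaving out 1 library assumes that a lone library varies like the other groups.

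The replicate block gave 2739 differing and 244 opposite genes, and correlations of deviations between libraries of the same number were -0.0588 to 0.0636, so the numbers do not pair them. Splits of differing genes with the YAP5SA change higher were 69.3% in the reported fit, 79.4% by library totals, 80% with the required change and 81% to 82.8% without a day 0 or day 21 library. Of named genes, the uncalled difference of Anxa3 ran from -0.156 to 0.632 over the fits without 1 library, and that of Ajuba from -0.701 to 0.897; the cause was not tested. The depth of 6730816 to 10539136 counts leaves genes near 0 with bounds only, and 814 called differences have a group at or under 3 counts.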

Other observations

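Of the 58 genes that went down in YAP5SA and up in Non-NE cells, both libraries of day 3 lay below both of day 0 in 48 (82.8%) and those of day 7 in 54 (93.1%), against 34.6% and 40.2% of all genes tested. Mean levels at days 0, 3, 7 and 21 were 13.7, 5.74, 2.73 and 1.64 CPM for Apcdd1 and 8.25, 2.71, 0.875 and 0.289 CPM for Angpt1. Maf stood at 2.79 CPM at day 0 and between 0.559 and 0.824 CPM on the later days. The class was defined by day 21 against the same day 0 libraries, so these counts describe the days in between and test nothing.

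Csf1r, the receptor of the macrophage growth factor CSF1, rose in both, with 104 and 125 CPM at day 21 against 0 at day 0, and 0.66, 0.975 and 1.6 CPM in Non-NE against 0.0954 and 0 CPM in NE cells. The test called the larger rise at day 21, but with day 0 at 0 and NE cells near 0 its size cannot be estimated. Csf1r was noticed as a member of the leukocyte marker list, of which Ptprc, Tyrobp and Cd3e were at or near 0 in every group. Dclk1, a kinase used as a tuft cell marker, stood at 303 ± 68.9 CPM in Non-NE against 8.95 ± 2.05 CPM in NE cells and 1.68 ± 0.617 CPM at day 21 against 2.72 ± 0.478 at day 0, while Pou2f3 and Gfi1b were at or near 0.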
